A study of Ambystoma mexicanum with 12 samples.

Results

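The transcripts described here are 5 genes of the axolotl, Ambystoma mexicanum: VMO1.11 (AMEX60DDU001028802), VMO1.9 (AMEX60DD026479), DMBT1.45 (AMEX60DDU001011215), DMBT1.17 (AMEX60DD053301) and UBQ (AMEX60DD030335). They are 5 of 99088 genes counted. They were chosen by their positive correlation with the aged samples in the coexpression network of the study, which was built on these libraries together with libraries of other studies that were not analysed here. Their high level in the aged limbs is therefore what selected them, and every comparison with the aged limbs is given as a description, with no test. The comparison of blastemas with juvenile limbs was not itself the ground of that choice and was tested. It is not independent of the choice, since a high correlation with the aged samples favours genes with like levels in the other libraries. A small difference between blastemas and juvenile limbs is therefore partly favoured by the choice.

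RNA was sequenced in 12 libraries of limb tissue, each from 1 animal. The juvenile group holds the limb tissue removed at amputation from 5 animals aged 8 months. The blastema group holds the tissue that formed on the same 5 animals by 10 days after amputation. The shared replicate numbers 2, 3, 5, 6 and 8 in the sample titles were taken to mark the animals. Every comparison within animals rests on that reading. The aged group holds the limb tissue of 2 other animals, aged 8 years, which formed no blastema, so no aged tissue from after amputation was sequenced. All animals came from a captive colony at Cuemanco derived from wild axolotls of Xochimilco, and no transgene or drug other than the anaesthetic was named. The sources differ on the limb sampled: it is the posterior leg in the sample labels, an inferior limb in the methods and a forelimb in the results of the study. Only 2 aged animals were sampled, and age and any other difference between the 2 sets of animals cannot be told apart.

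VMO1, the vitelline membrane outer layer protein 1 homologue, is a small secreted protein first described in the outer layer of the vitelline membrane of bird eggs. DMBT1, deleted in malignant brain tumours 1, is a large secreted glycoprotein of mucosal surfaces built from scavenger receptor cysteine-rich domains, and in mammals it binds bacteria and takes part in innate defence and in the differentiation of epithelia. Ubiquitin is the small protein that is attached to other proteins to mark them for the proteasome or to change their activity, and it is encoded by several genes in vertebrates. The number after a symbol separates genes that carry the same name in the annotation. The numbers imply further VMO1 and DMBT1 copies beyond those named here, which were not described. A read that fits several near-identical copies can be assigned to either or to none, and how the counting treated such reads is not given in the sources used here, so the values of single copies are uncertain.

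VMO1.11 was read in both aged limbs and almost nowhere else. It had 21 counts in aged limb 1 and 26 in aged limb 2. It had 3 counts in blastema 8 and none in the other 4 blastemas or in any of the 5 juvenile limbs. As levels (CPM, the count per 1000000 of the library size that edgeR's TMM method gives), it was at 0.933 in aged limb 1, 1.68 in aged limb 2 and 0.223 in blastema 8. The groups with reads did not overlap, since the lower aged limb was 4.19 times the only blastema with a read. Because the juvenile limbs held no read, their mean was set to the level that 3 counts over the whole group would give, 0.0340 CPM, and the mean of the aged limbs, 1.3 ± 0.52 CPM (SD, n = 2), was at least 38.4-fold higher. Against the blastemas, with 47 counts over 2 libraries and 3 over 5, the ratio of mean CPM was 29.3, and the pooled ratio of 29.4 had a 95% exact counting interval of 9.46 to 147.7. Intervals and floors of this kind cover counting error only.

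VMO1.9 followed VMO1.11 closely. Its counts were 28 in aged limb 1, 27 in aged limb 2, 3 in blastema 8 and 2 in juvenile limb 6, with none in the other 8 libraries. The levels were 1.24 and 1.74 CPM in the aged limbs, 0.223 CPM in blastema 8 and 0.123 CPM in juvenile limb 6. Again the aged limbs lay above all others. The mean of the aged limbs was 1.49 ± 0.35 CPM (SD, n = 2), a ratio of 60.5 to the juvenile limbs, and the pooled ratio of 63.8 had a counting interval of 16.8 to 540.1 because it rests on 2 juvenile counts. Without juvenile limb 6, no juvenile limb held a read, and the log2 ratio, 5.92 with all libraries, became a bound of 5.16. The ratio to the blastemas was 33.5, and the pooled ratio of 34.4 had an interval of 11.2 to 171.9.

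The counts of both VMO1 copies were close to equal wherever reads were found in number. VMO1.11 took 42.9% of the reads of the pair in aged limb 1 (95% Clopper-Pearson interval 28.8 to 57.8%) and 49.1% in aged limb 2 (35.1 to 63.2%). In blastema 8 each copy had 3 counts. Whether these reads came from both genes or were shared between near-identical sequences was not tested.

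DMBT1.17 reached 218 counts in aged limb 1 and 122 in aged limb 2, or 9.69 and 7.86 CPM. In the juvenile limbs it had 0 counts in animal 2, 9 in animal 3, 2 in animal 5, 5 in animal 6 and 3 in animal 8, which is at most 0.416 CPM. In the blastemas it had 2 counts in animal 5, 1 in animal 8 and none in animals 2, 3 and 6, at most 0.158 CPM. Every juvenile limb and blastema thus lay far below both aged limbs, the lower of which was 18.9 times the highest juvenile limb. The mean of the aged limbs was 8.78 ± 1.29 CPM (SD, n = 2) against 0.211 ± 0.159 CPM (SD, n = 5) in the juvenile limbs, a ratio of 41.6. Against the blastemas the ratio was 189.3, and the pooled ratio of 212.7 had a counting interval of 72.2 to 1036 because the blastemas held 3 counts. The log2 ratio to the blastemas, 7.56, was 8.88 when blastema 5 was left out, which leaves 1 count in that group.

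DMBT1.45 had 78 counts in aged limb 1 and 95 in aged limb 2, or 3.47 and 6.12 CPM. Its juvenile counts were uneven, with 1 in animal 2, 1 in animal 3, 2 in animal 5, 11 in animal 6 and 14 in animal 8, corresponding to 0.0494, 0.0462, 0.137, 0.678 and 0.901 CPM. Only blastema 6 held reads, with 4 counts and 0.303 CPM. Juvenile limbs 6 and 8 thus stood above the other 3 but below both aged limbs, and the lower aged limb was 3.85 times the highest juvenile limb. The mean of the aged limbs, 4.79 ± 1.88 CPM (SD, n = 2), was 13.2 times that of the juvenile limbs, 0.362 ± 0.399 CPM (SD, n = 5). The log2 ratio to the juvenile limbs, 3.73, was 4.40 without juvenile limb 8. Against the blastemas the ratio was 79.2.

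The share of reads between both chosen DMBT1 copies was not constant. DMBT1.45 took 26.4% of the reads of the pair in aged limb 1 (95% Clopper-Pearson interval 21.4 to 31.8%) and 43.8% in aged limb 2 (37.1 to 50.7%), and these counting intervals do not overlap. Among the juvenile limbs with at least 10 reads on the pair it took 10% in animal 3 (0.253 to 44.5%), 68.8% in animal 6 (41.3 to 89.0%) and 82.4% in animal 8 (56.6 to 96.2%). DMBT1.17 was thus ahead in aged limb 1 and juvenile limb 3 and DMBT1.45 in juvenile limb 8, whereas the intervals of aged limb 2 and juvenile limb 6 include equal shares.

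UBQ, unlike the others, was read in all 12 libraries. Its counts in the juvenile limbs were 82, 84, 37, 26 and 36 for animals 2, 3, 5, 6 and 8, with levels of 4.05, 3.88, 2.54, 1.60 and 2.32 CPM. In the blastemas of the same animals, in the same order, the counts were 21, 77, 46, 31 and 32 and the levels 2.05, 3.54, 3.62, 2.35 and 2.38 CPM. The aged limbs had 330 and 159 counts and 14.7 and 10.2 CPM. The juvenile limbs and blastemas overlapped throughout, whereas both aged limbs were above all 10 of them, the lower at 2.53 times the highest juvenile limb. The mean of the aged limbs was 12.5 ± 3.1 CPM (SD, n = 2), which was 4.33 times the juvenile mean of 2.88 ± 1.05 CPM (SD, n = 5) and 4.47 times the blastema mean of 2.79 ± 0.74 CPM (SD, n = 5).

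**Figure D1:**
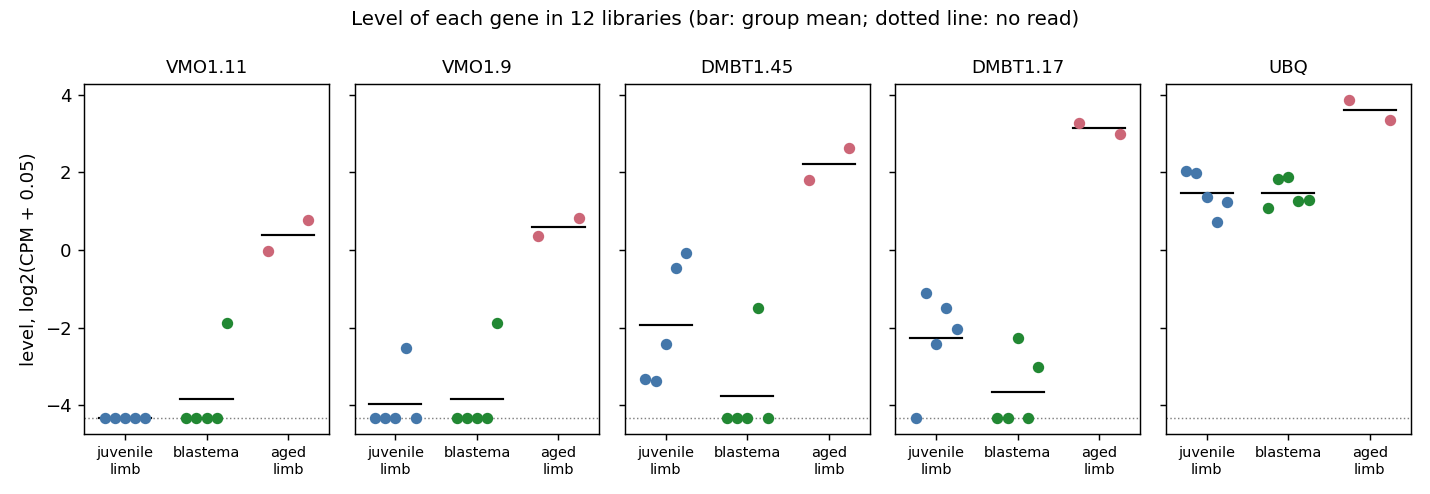
Level of each of the 5 genes in 12 libraries, as log2(CPM + 0.05) on the vertical axis, with 1 point per library, a bar at the group mean and a dotted line at the value of a library with no read. Both aged limbs lie above all 10 other libraries in each panel, and UBQ is the only gene with reads in every juvenile limb and blastema.

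All 5 genes were higher in both aged limbs than in each of the 10 other libraries, which is the pattern they were selected on. Over all genes with enough counts for a test in each comparison, 6.08% had both aged limbs above every juvenile limb, 12.3% had both above every blastema, and 2.44% had both above all 10 other libraries. VMO1.11, VMO1.9 and DMBT1.17 reached the count filter of the comparisons with the aged limbs only through their reads in the aged limbs. DMBT1.45 did so against the blastemas, whereas against the juvenile limbs its reads in juvenile limbs 6 and 8 were also enough. Nothing is therefore read from the count of genes above the other libraries. Of the 10 genes that the coexpression network associated positively with age, these 5 included, 9 were above all 10 other libraries here. The exception was AMEX60DD032635, with 0.267 CPM in aged limb 1 and 0.296 CPM in juvenile limb 2. In bulk tissue, fewer cells of a type and less RNA per cell cannot be told apart, and this holds for every level given here.

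The 2 aged limbs themselves differed in order from gene to gene. Aged limb 1 was the higher for UBQ and DMBT1.17, and aged limb 2 was the higher for DMBT1.45 and for both VMO1 copies. The SD over 2 limbs was at most 0.52 CPM for the VMO1 copies and reached 3.1 CPM for UBQ. Leaving out either aged limb kept each gene above the juvenile limbs and blastemas in mean level, with the lowest log2 ratio to the juvenile limbs at 1.83 for UBQ without aged limb 1 and at 3.26 for DMBT1.45 without aged limb 2.

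The blastemas were next compared with the juvenile limbs of the same animals, to see whether these genes also differed where a blastema formed. Calls required a log2 fold change beyond 1 in size together with an adjusted p below 0.05. Of 19961 genes tested with edgeR's quasi-likelihood test and Benjamini-Hochberg adjustment, 7.45% were called in either direction and 5.6% were called lower in the blastemas. UBQ was the only one of the 5 genes with enough counts for that test, and it was not called. Its log2 fold change was -0.05 (SE 0.34, 95% interval -0.79 to 0.70, adjusted p = 0.954, edgeR). Within animals, UBQ was lower in the blastema in animals 2 and 3, with log2 ratios of -0.96 and -0.13, and higher in animals 5, 6 and 8, with 0.50, 0.54 and 0.04.

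For the other 4 genes an exact two-sided permutation test was made on the difference of mean log2(CPM + 0.05) over all divisions of the 10 libraries into 5 and 5, with no adjustment. The smallest p this design allows is 0.00794, and 0.0625 where libraries were swapped only within animals. These hold where no libraries are tied, and libraries tied at 0 counts can raise the smallest p of a gene. An offset of this kind understates the change of low genes. DMBT1.45 was lower in the blastema in 5 of 5 animals, in animals 2, 3 and 5 with 0 counts against 1, 1 and 2. The difference was -1.83 on the log2 scale, but the groups overlapped and the test did not pass the threshold (exact permutation p = 0.0635, within animals 0.0625). That p was 0.0238 without blastema 6, the only blastema with reads of this gene, and reached 0.135 with another library left out. Fits across all genes without a filter on low counts gave adjusted p = 0.333 with edgeR and 0.334 with DESeq2. The ratio of mean CPM, blastema to juvenile limb, was 0.167, from 4 counts against 29.

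DMBT1.17 was lower in the blastema in 3 of 5 animals, higher in animal 5 and at 0 counts in both tissues of animal 2. The difference was -1.38 on the log2 scale (exact permutation p = 0.111, within animals 0.25). It was -1.89 with p = 0.0238 in the exact permutation test without juvenile limb 2, the only juvenile limb without a read, and p reached 0.206 with other libraries left out. The ratio of mean CPM was 0.220, and the pooled ratio of 0.195, from 3 counts against 19, had a counting interval of 0.0370 to 0.663.

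Neither VMO1 copy could be compared with any precision between these tissues. VMO1.11 had 3 counts in all blastemas and 0 in all juvenile limbs, and VMO1.9 had 3 and 2 (exact permutation p = 1 for each). VMO1.11 had reads in blastema 8 alone among these libraries, so its p was fixed in advance. With reads in blastema 8 and juvenile limb 6 alone, VMO1.9 could not reach 0.05 in this test. Both copies had at most 3 counts in either group, where 3 counts correspond to 0.0421 CPM over the blastemas and 0.0340 CPM over the juvenile limbs. A difference between levels this low was not resolved at this depth. For VMO1.9 the pooled ratio of blastemas to juvenile limbs was 1.85, with a counting interval of 0.212 to 22.2.

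**Figure D2:**
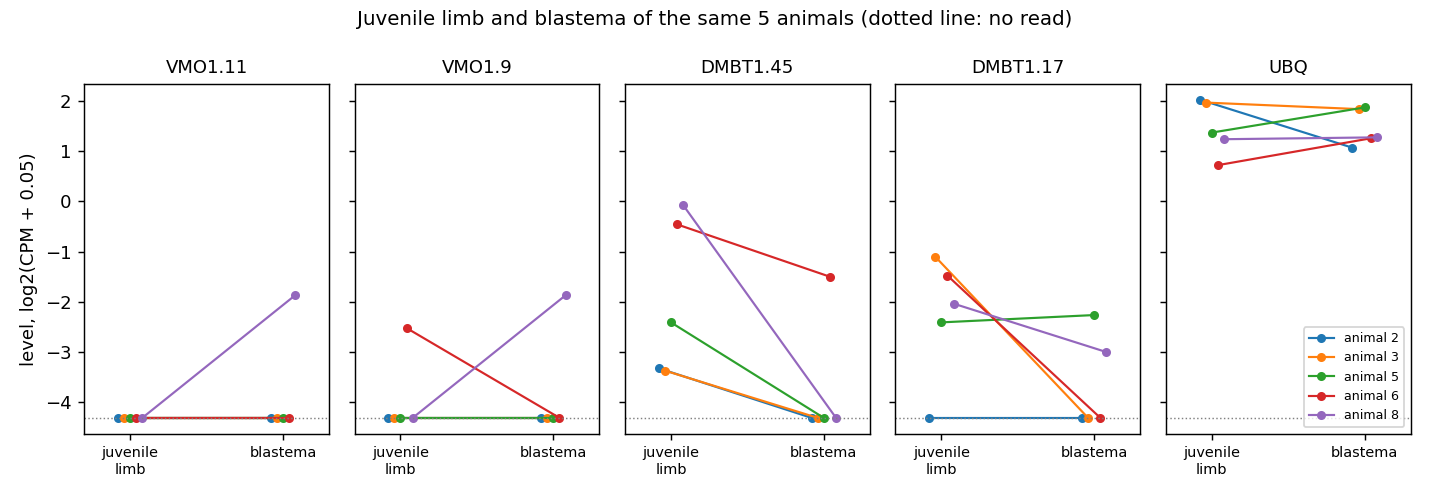
Level of the 5 genes as log2(CPM + 0.05) in the juvenile limb and the blastema of the same 5 animals, with 1 line per animal and a dotted line at the value of a library with no read. DMBT1.45 is lower in the blastema in 5 of 5 animals, in animals 2, 3 and 5 with 0 counts against at most 2. UBQ is lower in 2 and higher in 3, and the VMO1 copies have reads in the blastema of animal 8 alone and, for VMO1.9, in the limb of animal 6.

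Other copies of DMBT1 named in the tables of the study were read in the same libraries. DMBT1.3 (AMEX60DD031693) had levels of 2.44 and 3.29 CPM in the aged limbs, between 0.296 and 1.80 CPM in the juvenile limbs and between 0.454 and 6.32 CPM in the blastemas. Unlike the chosen copies, it was read in every blastema, with 181 counts over the 5 blastemas against 55 over the 5 juvenile limbs. Its fitted log2 fold change in the blastemas was 1.93 (SE 0.72, adjusted p = 0.125, edgeR), which did not pass the test.

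DMBT1.16 (AMEX60DD053300) had 2.00 and 2.26 CPM in the aged limbs, between 0.148 and 1.31 CPM in the juvenile limbs, and reads in 2 of 5 blastemas, with at most 0.372 CPM. Both aged limbs were above every juvenile limb for DMBT1.16 and for DMBT1.3, with ratios of mean CPM of 3.02 and 4.34. In the test of aged against juvenile limbs, where 0.103% of all 24316 genes tested were called, the log2 fold changes were 1.62 (SE 0.72, adjusted p = 0.673, edgeR) for DMBT1.16 and 2.13 (SE 0.74, adjusted p = 0.577, edgeR) for DMBT1.3. Both copies outside the choice thus lay higher in both aged limbs than in any juvenile limb, as did 6.08% of all genes tested, and the difference passed the test for neither.

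The makeup of the reads on these 4 DMBT1 copies was described, with no test. The numbers in the names run beyond 4 copies, so the shares are not of all DMBT1 reads. Over them, the summed level was 17.6 and 19.5 CPM in the aged limbs, between 0.494 and 3.35 CPM in the juvenile limbs and between 0.757 and 6.76 CPM in the blastemas. DMBT1.45 and DMBT1.17 together made up 74.7% of 396 reads and 71.6% of 303 reads in the aged limbs, between 10% and 48.5% in the juvenile limbs, where no library held more than 52 reads, and between 0% and 40% in the blastemas. DMBT1.3 made up between 60% and 100% of them in the blastemas, between 17.9% and 60% in the juvenile limbs and 13.9% and 16.8% in the aged limbs. The blastemas held between 10 and 91 of these reads. The 40% of the chosen copies and the 60% of DMBT1.3 there are both from blastema 6, with 10 reads. The ranges of juvenile limbs and blastemas thus overlapped for the chosen copies and met for DMBT1.3. Since DMBT1.45 and DMBT1.17 were chosen for their level in age, their share there is a description.

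**Figure D3:**
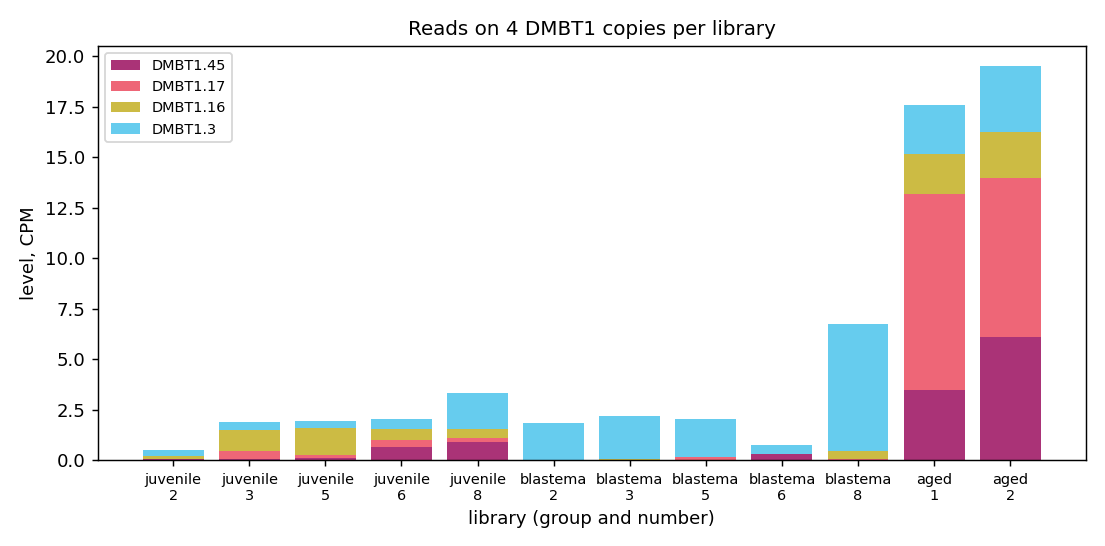
Stacked bars of the level, in CPM, of 4 DMBT1 copies in each of the 12 libraries. The bars of the aged limbs reach 17.6 and 19.5 CPM and are mostly DMBT1.45 and DMBT1.17, whereas those of the blastemas are mostly DMBT1.3.

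Among other proteins with scavenger receptor cysteine-rich domains, MARCO, a receptor of macrophages for bacteria and particles, rose in the blastemas (log2 fold change 1.36, SE 0.36, adjusted p = 0.0370, edgeR). LGALS3BP.3, annotated as the secreted galectin 3 binding protein, fell (-1.91, SE 0.52, adjusted p = 0.0393, edgeR). LOXL2, a lysyl oxidase that acts on collagen, had a log2 fold change of 2.20 (SE 0.64, adjusted p = 0.0545, edgeR) and did not pass. Over the 5 genes of this list, DMBT1.3 and DMBT1.16 included, 4 were tested in the blastemas, with a median log2 fold change of 1.65 against -0.02 over all genes tested. As the tested genes went both ways and the list was chosen with results of these data known, nothing is read from this median. DMBT1.16, not tested there, had 6 counts over the blastemas against 61 over the juvenile limbs, a ratio of mean CPM of 0.119. MARCO had 22.4 and 14.2 CPM in the aged limbs, within the juvenile range of 9.18 to 34.1 CPM.

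Over 26 genes of ubiquitin conjugation, its removal and the proteasome, 22 were tested in the blastemas, where 1 rose and 6 fell, beside the 7.45% of all genes tested that were called in either direction and the 5.6% called lower. The median log2 fold change of the list was -0.02, as over all genes tested. This list was chosen with results of these data known, so its counts are a description. TRIM63, a ubiquitin ligase of muscle fibres, had the largest fall, with a log2 fold change of -8.54 (SE 0.90, adjusted p = 1.13e-04, edgeR). USP13, a deubiquitinase, fell by 6.97 (SE 0.73, adjusted p = 1.11e-04, edgeR). In the same libraries 24 of 24 genes of the skeletal muscle list, chosen with results of these data known, were called lower. Any link between these falls and muscle was not tested. RNF125, a ubiquitin ligase, was the only gene of the ubiquitin list called higher (1.82, SE 0.34, adjusted p = 0.00584, edgeR).

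In the aged limbs none of the 22 tested genes of this ubiquitin list passed edgeR's test, beside 0.103% of all genes tested. An unadjusted p under 0.05 was found for 1, and DESeq2 called 1. No share over all genes is given for these last counts, so nothing is read from them. The median log2 fold change of the 22 genes was -0.01 against -0.04 over all genes tested. The summed level of the list was 416.1 and 292.3 CPM in the aged limbs, which lay above and within the juvenile range of 290.1 to 403.4 CPM.

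The tissue makeup of the libraries was described by lists of markers, whose part in the levels of the 5 genes was not tested. Skeletal muscle genes summed to 18246 CPM in aged limb 1 and 2397 CPM in aged limb 2, against 9458 to 37390 CPM in the juvenile limbs and 69.9 to 112.4 CPM in the blastemas. Aged limb 2 was thus below the juvenile range in muscle genes and aged limb 1 was within it. Epidermal genes summed to 12094 and 12037 CPM in the aged limbs, within the juvenile range of 7866 to 19304 CPM, and to between 2481 and 5516 CPM in the blastemas. Genes of mucus and mucosal surfaces, the setting in which DMBT1 is best known, summed to 4993 and 4020 CPM in the aged limbs, within the juvenile range of 2717 to 6554 CPM. In the blastemas they ranged from 70.7 to 1675 CPM. Most of the epidermal sum in the aged limbs came from KRT12.1 and KRT12.7, and most of the mucosal sum from FCGBP.8 and FCGBP.9. These sums therefore say little of the other genes of each list.

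Immune cell genes summed to 329.0 and 497.0 CPM in the aged limbs, within the juvenile range of 223.7 to 512.9 CPM. IL1B alone was at 114.3 and 315.0 CPM there, so the immune sum also says little of the other genes of its list. Myelin genes, at 56.5 and 55.5 CPM, were also within the juvenile range, 53.9 to 172.1 CPM. Bone genes were below it, at 1.33 and 3.61 CPM against 14.4 to 30.0 CPM. In the blastemas 11 of 13 epidermal genes, 3 of 13 mucosal genes, 5 of 11 immune genes, 2 of 2 myelin genes and 2 of 2 bone genes with enough counts fell, and 1 immune gene rose (edgeR), beside 5.6% of all genes tested that were called lower. The median log2 fold changes there were -1.9 for the epidermal, -2.49 for the mucosal and -11.25 for the muscle genes, against -0.02 over all genes tested. These lists, bone included, were chosen with results of these data known. Their sums, counts of called genes and medians are therefore a description, and nothing is read from their distance to the shares over all genes. Of the epidermal genes called, the keratins KRT8.2 and KRT8.1 had the largest log2 fold changes, -4.92 and -4.82. Of the 3 mucosal genes called, the mucins MUC4.6 and MUC3B had the largest, -2.15 and -1.9, and some mucosal genes with larger fitted changes did not pass the test. In the aged limbs, of 102 genes tested with edgeR over 8 lists, these, the scavenger receptor and the ubiquitin lists, none passed and 16 had an unadjusted p under 0.05. DESeq2 called 6 of 103, among them 3 of the 4 bone genes. No share over all genes is given here for DESeq2 or for unadjusted p, so nothing is read from these counts.

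**Figure D4:**
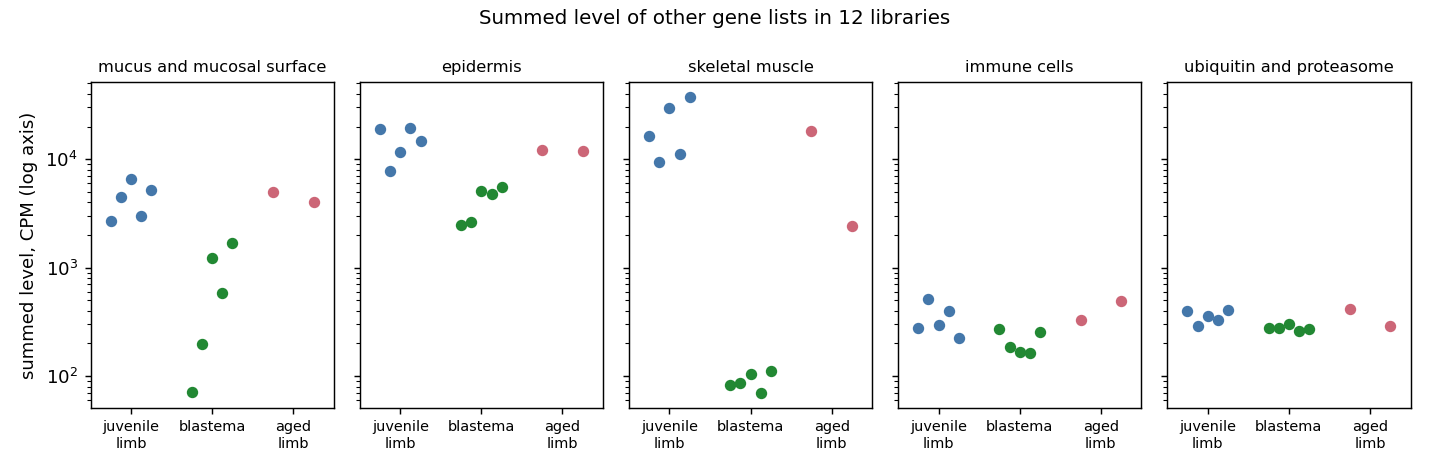
Summed level in CPM, on a log axis, of 5 gene lists in 12 libraries, with 1 point per library. The mucosal, epidermal and immune sums of both aged limbs lie within the juvenile range, whereas the muscle sum of aged limb 2, at 2397 CPM, lies below it. A sum can rest largely on a few genes of its list.

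How the 5 genes varied together was described over the 12 libraries, which share their scaling and hold 2 aged limbs that set most of each pattern. The pairwise Pearson r of log2(CPM + 0.05) ranged from 0.57, for DMBT1.45 and UBQ, to 0.96, for both VMO1 copies. Over the 10 libraries without the aged limbs it ranged from -0.55 to 0.78, again between the same pairs, and the 0.78 of the VMO1 copies rests on 3 reads of each in blastema 8. The likeness through the aged limbs follows from the choice of the genes, and with 4 of the 5 at or near 0 counts in most of the other libraries, little can be read from r among those.

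Among 32329 genes with at least 20 counts in all, the 2 genes most like each of the 5 were looked up by the same r over 12 libraries. For VMO1.11 they were VMO1.9 (r = 0.96) and AMEX60DD041268 (r = 0.94), and for VMO1.9 they were VMO1.11 and AMEX60DD038678 (r = 0.96). For DMBT1.45 they were AMEX60DD041129 (r = 0.94), with 1354 and 1129 counts in the aged limbs against 293 over all juvenile limbs, and AMEX60DDU001022941 (r = 0.94), with 5 and 6 counts. For DMBT1.17 they were AMEX60DD009403 (r = 0.94) and AMEX60DD009379 (r = 0.93), and for UBQ they were AMEX60DD038653 (r = 0.93) and AMEX60DD033060 (r = 0.92). No name was paired with these other identifiers in the tables used here, and 7 of these 8 genes had at most 22 counts in either aged limb, so their r carries little weight.

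Library totals ranged from 12975883 to 20663627 counts, with 17666680 and 16836023 in the aged limbs, so the aged limbs did not stand apart in total counts. The library sizes after TMM, which the levels use, ranged from 1.02e+07 in blastema 2 to 2.25e+07 in aged limb 1. Aged limb 2 was at 1.55e+07. Juvenile limb 6 had reads on 46501 genes, the most of any library, against 35977 and 30297 in the aged limbs. Whether this bears on its reads of VMO1.9 and DMBT1.45 was not tested. A library with 3 counts of a gene had between 0.133 and 0.293 CPM of it. The lengths of the genes were not used, so the levels of different genes are not ranked against each other.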

How the data were processed

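Stranded libraries of RNA without ribosomal RNA were sequenced from both ends, and the authors mapped the reads to AmexG_v6.0-DD with STAR 2.7.9a. The submitters' processing notes also name Trimmomatic 0.39. The authors deposited counts per gene of AmexT_v47 from featureCounts, as whole numbers with no scaling. How strand, multiply mapping reads and gene overlaps were handled is not given in the sources used here. The files of the 12 libraries equalled the joint table.

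Groups were taken from the sample titles. Fits used edgeR 4.0.16 in R 4.3.3 on the 2 groups compared (TMM, filterByExpr, quasi-likelihood F test, Benjamini-Hochberg over all genes tested), and the standard error was taken as the absolute log2 fold change over the root of F. Levels in CPM used TMM over all 12 libraries. A group without a count was set to 3 counts over the group. Genes under the filter were compared by an exact permutation test on log2(CPM + 0.05).

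The 5 genes and all lists were chosen with earlier results of these data known. The named genes were the 5, their relatives in the tables of the study (DMBT1.3, DMBT1.16, MARCO, LOXL2, LGALS3BP.3), the other 14 age-associated genes as a tally, the 2 genes most alike to each, and the 2 largest called changes of a list, given here for the ubiquitin, epidermal and mucosal lists. The test of aged limbs for genes outside the 5 was added after seeing the data. Replicate numbers were taken to pair juvenile limb and blastema, because the same animals gave both and the numbers in the titles match. The deviations from the group mean, compared between the libraries of 1 animal, correlated with a median of 0.144 (-0.00018 to 0.214, 5 pairs), against -0.0097 for other pairs.

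Alternatives were DESeq2 1.42.0, its size factors, library totals, no filter, all 12 libraries, the animal as a block, an offset of 0.5, and each library left out. The fit was tested on simulated data. Sequences of these genes were not used here, and 1 gene that the rule names is not reported here.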

Additional observations from a re-analysis of the deposited data

Results flagged for a closer look

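In 4 of 10 groups of 5 libraries examined (each of the 5 genes in the juvenile limbs and in the blastemas), 1 library stood apart from the other 4 by most of the range of the group. In each case the other 4 libraries had no read, so the gap is the whole range by construction. The rate of about 1 in 20 groups at which chance marks a library holds for continuous values and is no measure for these counts. VMO1.11 and VMO1.9 were both at 0.223 CPM in blastema 8, from 3 counts each. VMO1.9 was at 0.123 CPM in juvenile limb 6, from 2 counts. DMBT1.45 was at 0.303 CPM in blastema 6, from 4 counts.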

How the results depend on the processing

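Blastemas against juvenile limbs gave 1488 genes called, 2696 with DESeq2, 3260 with no filter, 1394 with the animal as a replicate block and 1099 to 1800 with 1 library left out. UBQ was called in none of these (log2 fold change -0.01 with the block, -0.19 to 0.11 with 1 library left out). With 1 library left out, the log2 difference ranged from 0 to 0.61 for VMO1.11, from -0.36 to 0.49 for VMO1.9, from -2.39 to -1.36 for DMBT1.45 and from -1.89 to -1.08 for DMBT1.17, and p passed 0.05 only for DMBT1.45 without blastema 6 and DMBT1.17 without juvenile limb 2 (exact permutation p = 0.0238 for each). The block left UBQ uncalled. The genes other than UBQ were compared by swaps within animals. The smallest p of that permutation test is 0.0625, so none of them could pass 0.05 there. Over all settings tried, p ranged from 0.0238 to 0.334 for DMBT1.45 and to 0.473 for DMBT1.17 (permutation, or adjusted p of edgeR and DESeq2). With an offset of 0.5 in place of 0.05, the log2 difference of blastemas and juvenile limbs was -0.53 for DMBT1.45 and -0.36 for DMBT1.17 (exact permutation p = 0.175 and 0.0952). The log2 ratio of aged to juvenile limbs also depends on the offset for low genes. Taken as the difference of mean log2(CPM + offset), with an offset of 0.05 and of 0.5, it was 4.70 and 1.82 for VMO1.11 (main bound 5.26) and 4.57 and 1.92 for VMO1.9 (main 5.92). For DMBT1.17 it was 5.41 and 3.73 (main 5.38), and for DMBT1.45 4.15 and 2.69 (main 3.73). The fall from an offset of 0.05 to 0.5 is by construction. The main values are log2 ratios of mean CPM, so they differ from these in measure as well as in offset. With 1 library left out, the log2 ratio to juvenile limbs ranged from 4.78 to 5.62 for VMO1.11, 5.16 to 6.14 for VMO1.9, 3.26 to 4.40 for DMBT1.45, 5.06 to 5.78 for DMBT1.17 and 1.83 to 2.35 for UBQ. The values of VMO1.11 and the 5.16 of VMO1.9 are bounds, since no juvenile limb used there held a read. The log2 ratio to blastemas ranged from 4.39 to 5.23, 4.74 to 5.29, 5.84 to 6.66, 7.24 to 8.88 and 1.88 to 2.40 in the same order of genes. No paired analysis was possible because aged and juvenile tissue came from separate animals, where the aged limbs are compared. The 2 aged animals and the low counts limit precision.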
